A study of Mus musculus with 6 samples.

Results

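Mitochondria continually join and divide, and 10 genes that encode the core machinery of both processes were followed here in mouse eggs: Mfn1, Mfn2 and Opa1 for fusion, Oma1 and Yme1l1 for the cutting of OPA1, and Dnm1l, Fis1, Mff, Mief1 and Mief2 for fission. The genes were selected by symbol, as the rows with an Ensembl mouse gene identifier, and each matched 1 row, giving 10 of the 60193 rows in the expression matrix. Ensembl genes made up 53700 of those rows, and the other 6493 were assembled loci. All 10 genes are protein-coding.

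The RNA came from metaphase II oocytes of ICR mice, an outbred strain, aged 42-45 weeks, which the study used as a natural model of advanced reproductive age. No transgene or gene deletion was involved, and all females had received the hormone PMSG. In the IVM group, 46 h after PMSG, oocytes stripped of cumulus cells were cultured for 12 h in M16 medium until maturation in vitro. In the IVO group, oocytes matured in vivo after a second hormone, hCG, and were collected from the oviduct 14 h after it. Each group had 3 libraries, numbered IVM 1 to 3 and IVO 1 to 3, and per the study's methods each library was a pool of 20 oocytes from 3 mice, so a value is an average over oocytes and mice. The comparison therefore differs at once in the place of maturation, the hormone, the presence of cumulus cells and the timing, which cannot be told apart.

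Mitofusins 1 and 2 join the outer membranes of neighbouring mitochondria, and OPA1 then joins the inner membranes and keeps the cristae in shape. The proteases OMA1 and YME1L cut OPA1 and so set its fusion activity. Fission is carried out by DRP1, the product of Dnm1l, a GTPase that is drawn from the cytosol to the outer membrane by the adaptors MFF, MiD49 (Mief2), MiD51 (Mief1) and FIS1 and constricts the organelle there. Oocytes hold many small round mitochondria, all passed to the embryo by the mother, and a fully grown oocyte is nearly silent in transcription, so that the mRNA of an egg is mostly a store laid down during growth.

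Values are FPKM, fragments scaled to transcript length and to the size of the library, so levels and sums compared between genes rest on the listed lengths. These differ unevenly from the canonical transcripts of the GENCODE annotation. For Mfn1, Opa1 and Dnm1l the listed lengths are 2789, 3153 and 2151 bases and the canonical ones 8671, 6267 and 5449. For Fis1 both are 786 bases. The spacing of the low FPKM values put the depth at 16400000 to 19300000 fragments per IVM library and 17800000 to 18200000 per IVO library, and the mean fragment length at 206 to 214 bases in IVM and 252 to 262 bases in IVO. All 10 oocyte markers examined were present, with a summed level of 19695 to 26094 FPKM in IVM and 20212 to 22874 in IVO. That sum is mostly Oosp1 and Dppa3. Zp2, Zp3, Zp1 and Nlrp5 were 14.1-fold, 9.61-fold, 5.72-fold and 3.92-fold lower in IVO, all past both thresholds. Bmp15 was lower too (limma adjusted p = 0.0120), but its change of -0.98 missed the fold threshold. Mos (adjusted p = 0.0609), Gdf9 (0.232), Dppa3 (0.584), Ddx4 (0.949) and Oosp1 (0.483) did not pass, and Oosp1 had the higher mean in IVO. Some oocyte mRNAs were thus lower in IVO, as Mff and Fis1 were, and others were not called. Of 18 cumulus and granulosa markers, 14 were below 1 FPKM in every library and Amh was at 0, with a summed level of 70.6 to 90.4 FPKM in IVM and 49.0 to 76.4 in IVO. Nr5a2, Cyp19a1, Amhr2 and Fshr carry that sum. Gja1 (0.02 to 0.05 against 0.24 to 0.86 FPKM), Tnfaip6 (0 to 0.14 against 0.34 to 0.49), Has2 (0.04 to 0.14 against 0.17 to 0.37) and Ptx3 (0 to 0.03 against 0.07 to 0.17) were higher in every IVO library. Nr5a2 (28.32 to 39.19 against 13.5 to 17.81 FPKM, limma adjusted p = 0.0139) and Inhbb (0.03 to 0.04 against 0) were lower in every IVO library. The other cumulus and granulosa markers overlapped between the groups. Oviduct markers summed to 2.76 to 3.04 FPKM in IVM and 3.26 to 5.58 in IVO, with Pax8 at 0, and blood markers to 1.34 to 1.89 and 1.88 to 5.94 FPKM. Epcam carried most of the oviduct sum (2.69 to 2.88 against 2.87 to 5.4 FPKM), and no oviduct marker separated the groups. Of the blood markers, Cd68 was at 1.32 to 1.73 FPKM in IVM and 1.87 to 2.29 in IVO (limma adjusted p = 0.461). Hba-a1 and Hbb-bs were at 0.96 and 2.33 FPKM in IVO 2 and 1.45 and 2.04 in IVO 3. Elsewhere both were at 0, apart from Hba-a1 at 0.15 in IVM 3. The part of these cells in the results was not tested. Over the 18818 genes tested, the median log2 fold change of IVO against IVM was -0.30, so the values of the 10 genes are also given relative to that median.

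The fission adaptor genes Mff and Fis1 had 2.69-fold and 3.40-fold lower mean FPKM in IVO oocytes than in IVM oocytes, and both passed the test. They were 25% of the 8 tested genes, and 17.9% of all 18818 genes tested were lower in IVO by both thresholds. Fis1 did not pass with a trend against transcript length removed (limma adjusted p = 0.0511) or without IVM 3 (0.0566). None of the other 6 tested genes was called: the fusion genes Mfn1 and Opa1, the protease genes Oma1 and Yme1l1, the fission GTPase gene Dnm1l and the adaptor gene Mief1. Mfn2 and Mief2 had a mean below 1 FPKM and were not tested. Relative to one another, the 10 mRNAs were weighted towards fission in both groups, by 20.3 to 1 in IVM and 10.1 to 1 in IVO when the summed FPKM of the fission genes was divided by that of the fusion genes.

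**Figure D1:**
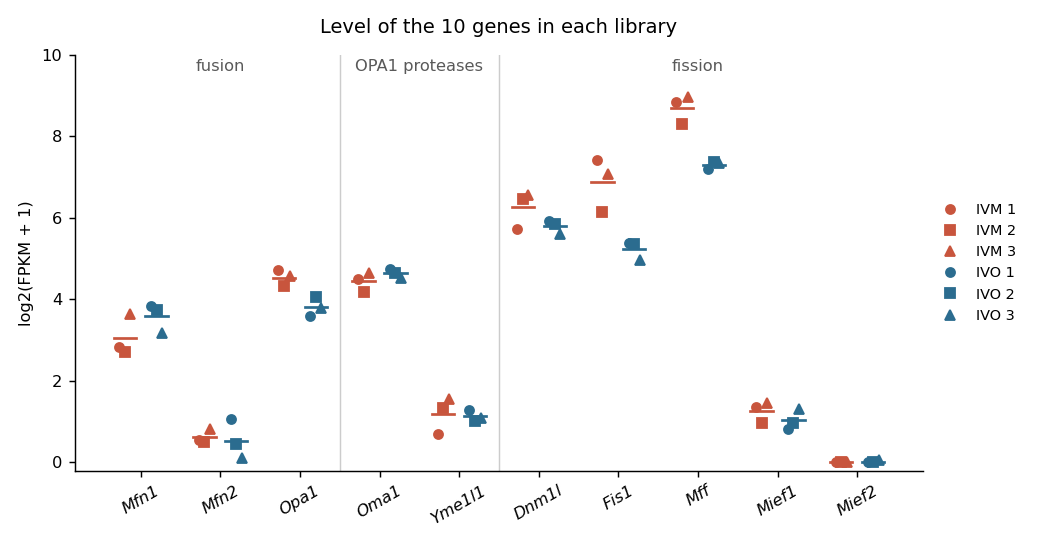
Level of each of the 10 genes, as log2(FPKM + 1) on the vertical axis, in 3 IVM libraries (red) and 3 IVO libraries (blue). A point is 1 library of pooled oocytes and a line is the group mean. All 3 IVO points lie under all 3 IVM points for Opa1, Fis1 and Mff, as for 32.6% of all tested genes. The groups overlap for the other genes.

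The levels spanned a wide range. In IVM oocytes the order of mean FPKM ran from Mff (423) through Fis1 (125), Dnm1l (77.9), Opa1 (22.4), Oma1 (20.9), Mfn1 (7.74), Mief1 (1.41), Yme1l1 (1.35) and Mfn2 (0.55) to Mief2, which was listed at 0. In IVO oocytes the order ran from Mff (157) through Dnm1l (54.6), Fis1 (36.9), Oma1 (23.9), Opa1 (13.3), Mfn1 (11.2), Yme1l1 (1.21), Mief1 (1.07) and Mfn2 (0.507) to Mief2. Fis1 and Dnm1l overlapped in IVM and traded places in IVO, where every Dnm1l value exceeded every Fis1 value. Opa1 and Oma1 also overlapped in IVM, and in IVO all 3 Oma1 values lay above all 3 Opa1 values. Mief1 and Yme1l1 overlapped in both groups. Averaged over the 6 libraries, Mff stood above 93.4% of the tested Ensembl genes, Fis1 above 83.0% and Dnm1l above 80.4%, whereas Yme1l1 stood above 4.47% and Mief1 above 3.85%.

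Among the fission genes, Mff encodes a tail-anchored outer membrane protein that is a main adaptor for DRP1. Mff lies on chr1:82702582-82730684 of GRCm39, on the plus strand, and measured 454.69, 312.3 and 501.17 FPKM in IVM 1, 2 and 3 and 145.5, 163.69 and 161.86 FPKM in IVO 1, 2 and 3. The lowest IVM library was far above the highest IVO library. The means were 423 ± 98.4 FPKM in IVM and 157 ± 10.02 FPKM in IVO (SD, n = 3), backed by about 11344 to 18184 fragments per IVM library and 4809 to 5409 per IVO library. On the log2(FPKM + 1) scale the change was -1.40 (SE 0.21, 95% interval -1.90 to -0.90), with a limma adjusted p of 0.00534 over all tested genes. Relative to the median of all tested genes it was -1.10. Mff kept an adjusted p under 0.05 in all 18 alternative analyses, with changes between -1.60 and -0.88, the smallest of them after quantile normalization.

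Fis1 encodes a smaller tail-anchored protein of the outer membrane. It lies on chr5:136982101-136995089, on the plus strand, and measured 171.42, 70.19 and 134.51 FPKM in IVM 1, 2 and 3 and 40.81, 39.75 and 30.1 FPKM in the IVO libraries. Here too no IVM value reached down to an IVO value, although IVM 1 was 2.44 times as high as IVM 2. The means were 125 ± 51.2 and 36.9 ± 5.90 FPKM (SD, n = 3), and the change was -1.66 on the log2(FPKM + 1) scale (SE 0.34, 95% interval -2.46 to -0.86, limma adjusted p = 0.0143), or -1.36 relative to the median. The listed Fis1 transcript, of 786 bases, was short, and short genes had lower log2 fold changes in general: the median was -0.39 for the 2591 tested Ensembl genes of up to 1000 bases and -0.12 for the 3082 of over 4000 bases. With the trend against length removed from each library, the change of Fis1 was -1.25 and its adjusted p 0.0511, and without IVM 3 the change was -1.56 and the adjusted p 0.0566.

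The 3′ ends of the Mff and Fis1 transcripts are shown because stored oocyte mRNAs are translated and degraded through signals near that end. Each run gives 30 bases of the GRCm39 genome, read 5′ to 3′ along the transcript, near the last base of the canonical transcript in the GENCODE annotation, with the polyadenylation signal AATAAA in capitals. The first lies at chr1:82730648-82730677 and the second at chr5:136995051-136995080, both on the plus strand.
Mff: aaaaagggtggaAATAAAaggaactcctaa
Fis1: gcaatgagtgtaAATAAAattgggccgtgg
Searched on the transcript strand alone, AATAAA or ATTAAA stood within the last 50 bases of 6 of the 10 canonical transcripts (Mfn2, Oma1, Yme1l1, Fis1, Mff and Mief2), against 74.1% of 19609 protein-coding canonical transcripts. The letters of a cytoplasmic polyadenylation element, TTTTAT or TTTTAAT, whose last letters can also begin a polyadenylation signal, stood within the last 100 bases of 1 of the 10, Yme1l1, against 16.97% of all. These letters were therefore in neither the Mff nor the Fis1 window. In Yme1l1 they start 14 bases from the transcript end, after its AATAAA, which starts 40 bases from that end. Whether they act as an element there was not tested. Which 3′ end the oocyte transcripts used was not tested, and the listed length of Mff, 2087 bases, differed from that of its canonical transcript, 2743 bases.

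Dnm1l, whose product is the fission GTPase itself, lies on chr16:16128677-16176904 on the minus strand. It measured 52.34, 87.73 and 93.66 FPKM in IVM 1, 2 and 3 and 59.38, 56.91 and 47.65 FPKM in the IVO libraries. IVM 1 lay among the IVO values, so that the groups overlapped. The change was -0.47 (SE 0.26, 95% interval -1.08 to 0.14, limma adjusted p = 0.242), and relative to the median -0.17, with a sign that turned to 0.04 after quantile normalization. In the annotation 53.4% of the exonic bases of Dnm1l are shared with genes on the other strand, Yars2 and the long noncoding RNA Gm49521. The library kit keeps no strand, so reads from these bases cannot be told apart. Gm49521 had mean levels of 13.1 FPKM in IVM and 12.0 FPKM in IVO, and Yars2 of 0.637 and 0.207 FPKM.

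The remaining adaptor genes encode the MiD proteins, anchored at their N-terminal end in the outer membrane. Mief1 (chr15:80118149-80138322, plus strand) measured 1.55, 0.94 and 1.75 FPKM in IVM and 0.76, 0.97 and 1.47 FPKM in IVO. The groups overlapped, with a change of -0.22 (SE 0.28, 95% interval -0.87 to 0.43, limma adjusted p = 0.608) that was 0.26 after quantile normalization. Mief2 (chr11:60618117-60623778, plus strand) was listed at 0 in 5 libraries and at 0.05 FPKM in IVO 3, about 2 fragments. At these depths 3 fragments would amount to 0.0671 to 0.0792 FPKM, so Mief2 was at or under the level that a count of 0 allows in every library.

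**Figure D2:**
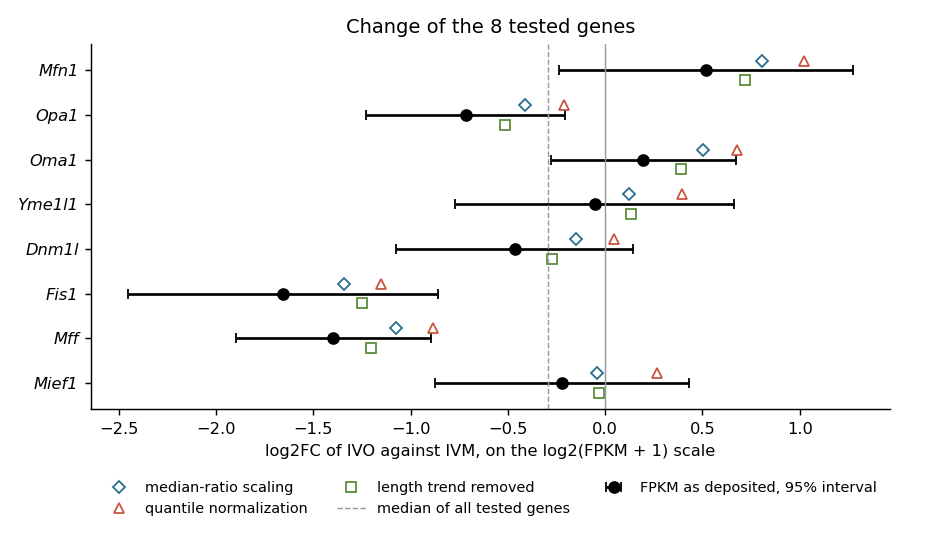
Log2 fold change of IVO against IVM for the 8 tested genes, on the log2(FPKM + 1) scale. Black points are the change with its 95% interval from FPKM as deposited, open symbols are the change under other scalings, and the dashed line is the median of all tested genes at -0.30. Mff and Fis1 stay left of the median and of 0 under every scaling shown, whereas Yme1l1, Dnm1l and Mief1 cross 0 under at least 1 of them.

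Fusion of the inner membrane depends on OPA1, a GTPase. Opa1 (chr16:29398108-29473858, plus strand) measured 25.38, 18.93 and 22.77 FPKM in IVM and 11.05, 15.8 and 12.9 FPKM in IVO. All 3 IVO values were below all 3 IVM values, as in 32.6% of all tested genes. The means were 22.4 ± 3.24 and 13.3 ± 2.39 FPKM (SD, n = 3). The change was -0.72 (SE 0.22, 95% interval -1.23 to -0.20), and the limma adjusted p of 0.0531 missed the threshold. It was 0.0388 when only genes with a mean of at least 5 FPKM were tested and 0.0462 when only Ensembl genes were tested, but 0.206 after median-ratio scaling, where the change was -0.41, 0.480 after quantile normalization, with -0.21, and 0.126 with the length trend removed, with -0.52. Relative to the median of all tested genes the change was -0.42.

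Of the mitofusin genes, Mfn1 (chr3:32583599-32645888, plus strand) measured 6.12, 5.56 and 11.55 FPKM in IVM and 13.42, 12.27 and 8.04 FPKM in IVO. IVM 3 lay among the IVO values. The change was 0.52 (SE 0.32, 95% interval -0.24 to 1.28, limma adjusted p = 0.289) and 0.82 relative to the median, and after quantile normalization it was 1.02 with an adjusted p of 0.0468. In the annotation 41.5% of the exonic bases of Mfn1 are shared with Gnb4, a G protein subunit gene, and the locus Gm66043 on the other strand. Gnb4 measured 120 FPKM in IVM and 179 FPKM in IVO on average, and its part in the Mfn1 values was not tested.

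Mfn2 (chr4:147955508-147989585, minus strand) was at 0.46, 0.42 and 0.77 FPKM in IVM and 1.08, 0.37 and 0.07 FPKM in IVO. Behind these values stood about 31, 34 and 61 fragments in IVM and 80, 27 and 5 in IVO, so the IVO libraries spread more widely than the IVM libraries. Mfn1 exceeded Mfn2 in every library, by 13.3, 13.2 and 15.0 to 1 in IVM and by 12.4, 33.2 and 115 to 1 in IVO, and these ratios overlapped.

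The OPA1 protease genes were not called in either direction. Oma1, encoding a stress-activated metalloprotease (chr4:103170737-103229065, plus strand), measured 21.48, 17.22 and 23.98 FPKM in IVM and 26.03, 23.91 and 21.87 FPKM in IVO. The values overlapped, with a change of 0.20 (SE 0.20, 95% interval -0.28 to 0.67, limma adjusted p = 0.529) that was 0.68 with an adjusted p of 0.0409 after quantile normalization. Yme1l1, encoding an ATP-dependent protease (chr2:23046034-23089281, plus strand), measured 0.61, 1.53 and 1.92 FPKM in IVM and 1.46, 1.04 and 1.12 FPKM in IVO. Its change was -0.05 (SE 0.30, 95% interval -0.77 to 0.66, limma adjusted p = 0.921), with a sign that depended on the scaling.

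By the thresholds of a log2 change of at least 1 in size and an adjusted p under 0.05, 2 of the 8 tested genes were lower in IVO and 0 were higher, against 17.9% and 0.606% of the 18818 genes tested. At an unadjusted limma p under 0.05, 3 were lower and 0 were higher, against 31.4% and 5.56% of all. Without the fold threshold the counts among the 8 genes were again 2 and 0, against 21.5% and 1.87% of all, or 23.4% in either direction. The 3 IVO values lay wholly below the 3 IVM values in 3 of the 8 genes, against 32.6% of all, and wholly above in 0, against 9.62%. The median change of the 8 genes was -0.34, beside -0.30 for all tested genes, and these counts were close to the background. Among the tested Ensembl genes, 7.13% had a lower log2 fold change than Fis1 and 10.6% a lower one than Mff, while 92.4% had a lower one than Mfn1. FPKM are relative to the other mRNAs of the same library, and in pooled oocytes fewer oocytes with a transcript and less of it per oocyte cannot be told apart.

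The make-up of the 10 mRNAs within a library does not change when all values of that library are multiplied by 1 factor, although quantile normalization and removal of the length trend can change it. Their summed level was 734, 515 and 792 FPKM in IVM and 299, 315 and 285 FPKM in IVO. Mff alone made up 61.9, 60.7 and 63.3% of it in IVM and 48.6, 52.0 and 56.8% in IVO. Every IVO share of Mff was below every IVM share. Together Mff and Fis1 accounted for 79.9 ± 5.51% of the sum in IVM and 64.7 ± 2.56% in IVO (SD, n = 3).

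The share of the fusion genes Mfn1, Mfn2 and Opa1 was 4.54 ± 0.261% in IVM and 8.31 ± 0.855% in IVO, and that of the OPA1 proteases 3.31 ± 0.318% and 8.39 ± 0.687% (SD, n = 3). Their summed FPKM overlapped between the groups, at 30.7 ± 5.21 and 25 ± 3.75 FPKM for the fusion genes. The fission to fusion ratio of summed FPKM was 21.3, 18.9 and 20.8 in the IVM libraries and 9.65, 9.19 and 11.5 in the IVO libraries, without overlap. Because Mff and Fis1 carry most of the fission sum, this ratio largely restates their values.

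**Figure D3:**
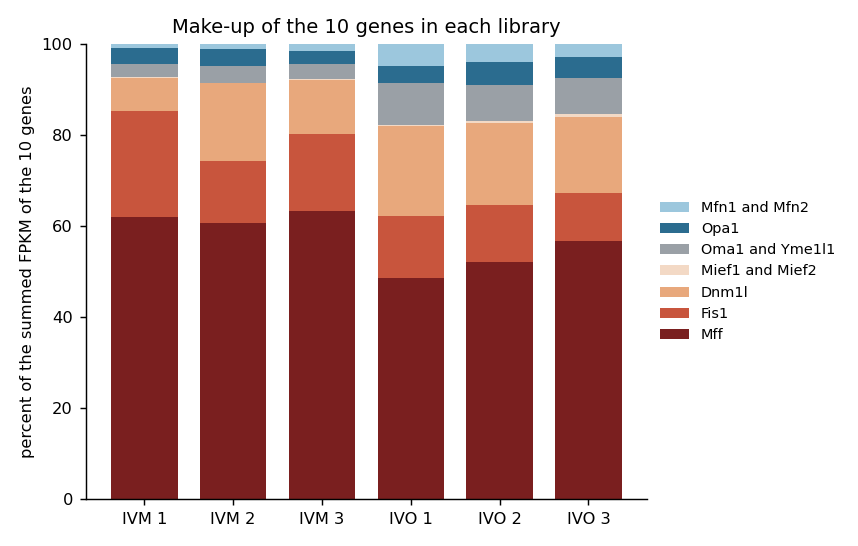
Make-up of the summed FPKM of the 10 genes in each library, as percent on the vertical axis. Mff and Fis1 together take 74.3 to 85.3% in the 3 IVM libraries and 62.2 to 67.3% in the 3 IVO libraries, and the shares of the OPA1 proteases and of Mfn1 are larger in IVO.

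Ratios of pairs of genes within the same library addressed whether adaptor mRNAs moved relative to the GTPase that they recruit. The FPKM of Mff was 8.69, 3.56 and 5.35 times that of Dnm1l in IVM 1, 2 and 3 and 2.45, 2.88 and 3.40 times in IVO 1, 2 and 3. The 2 groups of ratios did not overlap, but IVM 2 and IVO 3 lay close together. Of all pairs of tested Ensembl genes above 0 in every library, 40.2% did not overlap either. The mean difference was -0.93 on the log2 scale and ran from -1.24 to -0.60 as each library was left out in turn. For Fis1 to Dnm1l the ratios were 3.28, 0.80 and 1.44 in IVM and 0.687, 0.698 and 0.632 in IVO, again without overlap, with a mean difference of -1.21 and a range of -1.69 to -0.67. These ratios of Mff and Fis1 to Dnm1l were added after the values had been seen. Mff and Fis1 were the called genes, so the ratios largely restate those calls.

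The third tested adaptor gene, Mief1, overlapped in its ratio to Dnm1l, with a mean log2 difference of Dnm1l to Mief1 of -0.06. Relative to Mief1 itself, Mff and Fis1 were lower in all 3 IVO libraries without overlap, with mean log2 differences of -0.99 and -1.27. The ratios to Mief1 in this paragraph were not among the planned pairs, and Mief1 rests on about 53 to 131 fragments per library. The log2 ratio of Mff to Fis1 was 1.41, 2.15 and 1.90 in IVM and 1.83, 2.04 and 2.43 in IVO, which overlapped. Opa1 to Dnm1l overlapped as well, with a mean difference of -0.29, and so did Yme1l1 to Oma1, with -0.23. The FPKM of Mfn1 was 0.241, 0.294 and 0.507 times that of Opa1 in IVM and 1.21, 0.777 and 0.623 times in IVO. Mfn1 was thus higher relative to Opa1 in all 3 IVO libraries, a pair also picked out after its values were seen. For Mfn2, the other outer membrane fusion gene, which was below the filter, the ratio to Opa1 is not given. Of the exonic bases of Mfn1, 41.5% are shared with genes on the other strand, Gnb4 among them, whose part in this ratio was not tested.

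Of the 28 pairs that the 8 tested genes form, the ratios of 16 did not overlap between the groups, or 57.1%, against 40.2% of all pairs of tested Ensembl genes above 0 in every library. Of the 13 pairs that contain Mff or Fis1, 12 did not overlap, the exception being Mff to Fis1, and of the other 15 pairs 4 did not. Mff and Fis1 were the called genes, so the share among their pairs largely restates those calls. The pairs share genes and are not independent, and no p is given, since 3 against 3 libraries cannot go below 0.1 in an exact permutation test.

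**Figure D4:**
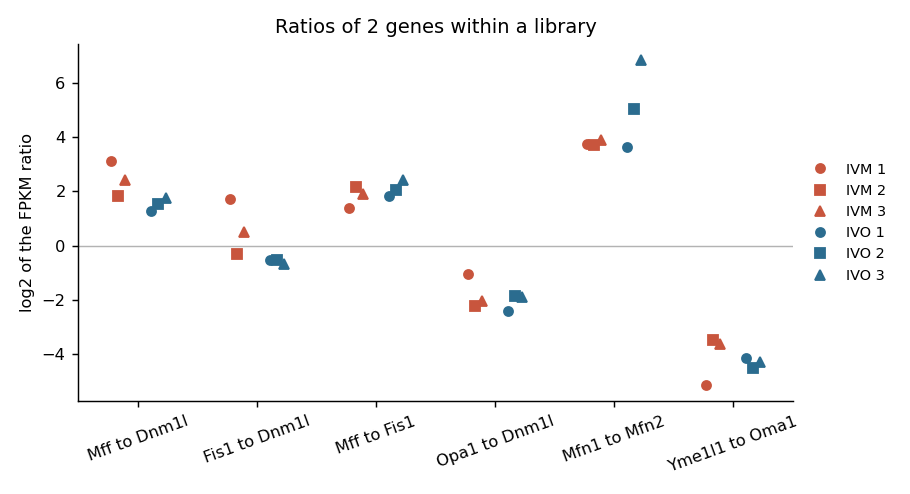
Log2 of the FPKM ratio of 2 genes in the same library, for 6 pairs along the horizontal axis, with 1 point per library (red IVM, blue IVO). The IVO points of Mff to Dnm1l and Fis1 to Dnm1l lie under all IVM points, and the points of the other 4 pairs overlap. Of all pairs of tested Ensembl genes above 0 in every library, 40.2% do not overlap.

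The coefficient of variation was larger over the IVM libraries for 6 of the 9 genes above 0 in IVM and larger over the IVO libraries for Mfn2, Opa1 and Mief1, a difference between the groups that was not tested. That of Mff was 23.3% over the IVM libraries and 6.38% over the IVO libraries, that of Fis1 40.9% and 16%, and that of Mfn2 34.8% and 102%. IVM 2 was the lowest IVM library for 7 of the 9 genes with a value above 0 in IVM, Dnm1l and Yme1l1 being lowest in IVM 1. In IVO, 5 of the 9 genes were lowest in IVO 3. Shares over all tested genes were not computed for the counts in this paragraph, so they cannot be called particular to these genes.

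Of 43 further genes of mitochondrial dynamics and shape, grouped in 6 lists, 34 had a mean of at least 1 FPKM. Of these, 3 were lower in IVO by both thresholds, Mtx2, Mtfr1l and Miga1, and 0 were higher, or 8.82% lower against 17.9% of all tested genes. At an unadjusted limma p under 0.05, 9 were lower and 2 higher, or 26.5% and 5.88% against 31.4% and 5.56%. Without the fold threshold 5 were lower, with Trak1 and Micos13, or 14.7% against 21.5%. Of the rest, 1 was higher, Apoo, or 2.94% against 1.87%, and 28 did not pass. Their median change was -0.23.

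Mtx2, encoding metaxin 2 of the outer membrane sorting and assembly machinery, showed the largest difference of the 34. It measured 60.78, 40.2 and 43.7 FPKM in IVM and 3.81, 3.13 and 4.42 FPKM in IVO, 12.7-fold lower in mean, with a change of -3.35 (SE 0.23, limma adjusted p = 6.53e-04). Mtfr1l, a gene of the mitochondrial fission regulator family, measured 36.27, 13.8 and 23.69 FPKM in IVM and 2.38, 3.28 and 2.56 FPKM in IVO, a change of -2.68 (SE 0.35, adjusted p = 0.00319). Miga1, encoding mitoguardin 1, an outer membrane protein that promotes fusion, measured 162.39, 121.54 and 73.58 FPKM in IVM and 32.53, 32.46 and 20.89 FPKM in IVO, a change of -1.98 (SE 0.33, adjusted p = 0.00729). The groups were separate for all 3 genes, and each kept an adjusted p under 0.05 in all 18 alternatives.

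In the transport list, Trak1, encoding an adaptor that links mitochondria to motor proteins, measured 515.91, 419.18 and 577.69 FPKM in IVM and 257.07, 323.97 and 259.34 FPKM in IVO. The groups were separate, with a change of -0.84 (SE 0.19, limma adjusted p = 0.0190), but the adjusted p was 0.0879 after median-ratio scaling. Without IVM 1, IVM 3, IVO 1 or IVO 3 it was 0.0607, 0.0505, 0.0649 or 0.0554. Rhot1, encoding the Miro GTPase that anchors such adaptors, overlapped between the groups at means of 95.7 and 98.8 FPKM. Rhot2, Trak2 and Mgarp were below the filter.

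Cristae are held in shape by the MICOS complex at their necks, and 2 of its genes passed, 1 in each direction. Of the 11 tested genes of the MICOS and sorting and assembly list, 2 were lower without the fold threshold, Mtx2 and Micos13. That was 18.2%, against 21.5% of all tested genes. Only Apoo was higher, or 9.09% against 1.87% of all, and 8 of the 11 did not pass. Apoo measured 89.91, 113.44 and 82.11 FPKM in IVM and 204.51, 168.21 and 152.19 FPKM in IVO, a change of 0.87 (SE 0.20, limma adjusted p = 0.0219) that was 1.19 after median-ratio scaling. Its adjusted p was 0.0657, 0.0566, 0.0743 or 0.0611 without IVM 1, IVM 3, IVO 1 or IVO 2. Micos13 changed by -0.97 (SE 0.25, adjusted p = 0.0292), from a mean of 5.18 to 2.16 FPKM, and its adjusted p was 0.0723 after median-ratio scaling, 0.1497 with the length trend removed (change -0.54, for a listed length of 755 bases) and 0.0902, 0.0731, 0.0786 or 0.0990 without IVM 1, IVM 3, IVO 1 or IVO 2. Immt, the central MICOS gene, overlapped at 73.3 ± 31.4 and 56.6 ± 18.6 FPKM (SD, n = 3).

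None of the 6 tested genes of the inner membrane protease and scaffold list passed, a list that holds the prohibitins and the rhomboid protease gene Parl, nor did any of the 4 tested genes of the ubiquitin and SUMO list, Marchf5, Senp3, Senp5 and Usp30, with Mul1 below the filter. At an unadjusted limma p under 0.05 these lists had 0 and 1 genes, the latter Senp3, which was lower, against 31.4% of all tested genes lower and 5.56% higher. Beside Miga1 in the outer membrane fusion list, Slc25a46 measured 2.04 FPKM in IVM and 3.40 in IVO (adjusted p = 0.109) and Mtch2 4.11 and 3.23 FPKM (adjusted p = 0.477), while Miga2 and Pld6 were below the filter.

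**Figure D5:**
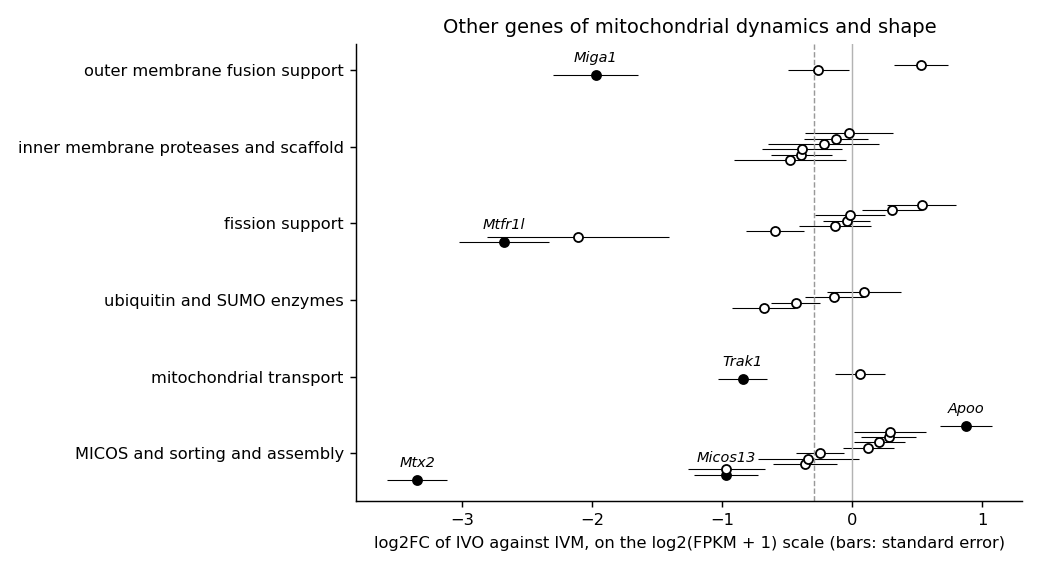
Log2 fold change of IVO against IVM, on the log2(FPKM + 1) scale with its standard error, for 34 tested genes in 6 lists of mitochondrial dynamics. Filled points have an adjusted p under 0.05 and are named, and the dashed line is the median of all tested genes at -0.30. Mtx2, Mtfr1l and Miga1 lie far to the left, and Apoo is the filled point to the right of 0.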

How the data were processed

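RNA of 6 oocyte pools was made into full-length cDNA with SMART-Seq v4, built into Nextera XT libraries and read as paired 150-base reads. The authors cleaned the reads (SeqPrep, Sickle), mapped them by HISAT2 to the GRCm39 genome and estimated abundance with RSEM; for HISAT2 and RSEM the submitters' processing notes name versions 2.1.0 and 1.3.3. The annotation release is not given in the sources used here. The authors deposited 1 matrix of FPKM per gene and library, with a gene length column. The counts behind the study's own test, by the authors with DESeq2, are not used here, so limma 3.58.1 in R 4.3.3 (trended eBayes, group as the only term) was fitted to log2(FPKM + 1) over the 18818 rows with a mean of at least 1 FPKM. A fold change on this scale understates the change of low genes. P-values were adjusted by Benjamini-Hochberg over all of them, with thresholds of 0.05 and a log2 change of 1, and tests were two-sided. The log2 fold change is IVO minus IVM.

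Depth and fragment numbers were worked out from the spacing of low FPKM values, of which 74.2 to 77.9% came out whole within 0.15 fragments, and are approximate. The floor of 3 fragments covers counting error only. The procedure for depth was tried on simulated libraries that followed its own assumptions, with errors of 0% in depth and 0 bases in fragment length. Such libraries cannot test those assumptions. Sequences, exons and overlaps come from GRCm39 and GENCODE M39, read with Python 3.11.15, and figures used matplotlib 3.10.9. All 10 genes were named. Of the further lists, the text names the called genes with up to 3 most negative and 3 most positive changes per list, and any gene of lists of at most 5, while Immt, Parl and the lengths and 3′ ends were picked afterwards. Members and lists were chosen with earlier results of these data known. Alternatives changed the pseudocount, filter, scaling, variance model, replicate block, length trend, the rows tested and the libraries.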

Additional observations from a re-analysis of the deposited data

How the results depend on the processing

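Over the 8 tested genes, 142 log2 fold changes under alternatives were computed, of which 124 kept direction and side of the adjusted p threshold of 0.05, 3 no longer passed it (all Fis1), 4 newly passed it and 11 changed sign, all in genes that had not passed it. The counts that follow also need a log2 change of 1. Of the counts of genes lower in IVO among all genes tested (3366), median-ratio scaling left 2130, quantile normalization 1580, equal library sums 1950, removal of the length trend 1511, that with the replicate block 741, Ensembl genes only 1972, and those with median-ratio scaling 1416. Counts higher in IVO (114) became 385, 1097, 323, 557 and 188 under the first 5 of these and 194 under the last. The lower genes were 96.7% of all called genes as deposited, 84.7% after median-ratio scaling, 59.0% after quantile normalization and 73.1% with the length trend removed. The median change of all tested genes was -0.04, 0.17 and 0.05 under these scalings.

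Among the 10 genes, the count lower in IVO by both thresholds fell from 2 to 1 after quantile normalization, where Mff changed by -0.88, and with the length trend removed, without and with the block, where Fis1 missed at adjusted p 0.0511 and 0.0941. The count without the fold threshold was 1 under both length settings. After quantile normalization 1 gene, Mfn1, was higher by both thresholds and 2, Mfn1 and Oma1, without the fold threshold. As each library was left out, both counts of lower genes ran from 1 to 2, and were 1 without IVM 3. In the further lists, the count higher by both thresholds rose from 0 to 1 after median-ratio scaling, with equal library sums, with the length trend removed, and for Ensembl genes with median-ratio scaling, and to 2 after quantile normalization. With each library left out it ran from 0 to 1. The cause was not tested.

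The change of Yme1l1, -0.05 as deposited, was 0.12 after median-ratio scaling, 0.40 after quantile normalization, 0.083 with equal sums, 0.13 with the length trend removed, also with the block, and 0.065 for Ensembl genes with median-ratio scaling. With each library left out it ran from -0.31 to 0.12, above 0 without IVM 2, IVM 3 or IVO 2. Quantile normalization turned Dnm1l to 0.043 and Mief1 to 0.26. The difference in the log2 ratio of Opa1 to Dnm1l ran from -0.51 to 0.073 with each library left out, above 0 without IVM 1, and that of Yme1l1 to Oma1 from -0.75 to 0.068, above 0 without IVM 2.

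With the replicate number as a block, 2899 genes were lower and 92 higher, and the adjusted p was 0.0202 for Mff and 0.0276 for Fis1. The deviations of libraries with the same number correlated by -0.0618, -0.0176 and -0.107, and no label ties them, so the numbers were not treated as pairs. Depth limits the values of Mfn2, Mief1, Mief2 and Yme1l1, each with about 167 fragments or fewer in every library. The precision of each value rests on 3 pools.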
